A study of Mus musculus with 29 samples.

Results

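Gene expression in lymph nodes of lupus-prone NZB/W mice was compared between mice that had been anti-dsDNA antibody-positive for less than 5 weeks (3 libraries, D10, D11 and L25) and proteinuric mice (3 libraries, H6, H20 and H117). The genes compared were the 6810 with a mean normalized value of at least 5 over these 6 libraries, of the 13982 genes listed for the 14 Ion Torrent libraries of the study. All mice were (NZBxNZW)F1, and no genetic change or drug is named for either group in the labels. The antibody-positive mice were 28 (D10), 29 (D11) and 18 (L25) weeks old, and the proteinuric mice 39 (H6), 36 (H20) and 32 (H117) weeks old. The nodes were renal draining lymph nodes, sampled as whole tissue, 1 node library per mouse. RNA of the antibody-positive nodes was isolated with the miRNeasy mini kit and RNA of the proteinuric nodes with TRIzol. Group, RNA kit and age range therefore cannot be told apart in this comparison. A seventh lymph node library (C45, 4 weeks old, TRIzol) is labelled young and is described only.

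The NZB/W F1 cross spontaneously develops a lupus-like disease in which antibodies against double-stranded DNA precede an immune complex nephritis with proteinuria. Lymph nodes hold B-cell follicles, T-cell zones and lymph-filled sinuses, and macrophages that line the sinuses take up particles and immune complexes from the lymph. Monocytes and macrophages bind IgG immune complexes through activating Fc gamma receptors, which signal through the shared gamma chain encoded by Fcer1g and are opposed by inhibitory receptors of the C-type lectin, Siglec and paired Ig-like families.

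Values are normalized read counts, in which 1 was added to the reads of each gene and the sum was divided by a size factor for the library, so that a gene with no read has a small listed value. The 6 libraries held between 343825 and 435906 reads, and 3 reads, taken as the floor, were worth a value between 3.24 and 5.80. Such limits cover counting error only, and the tests below measure the spread between these mice, except a fit of all 14 libraries described below. H6 and L25 stood apart from the other libraries. Ribosomal RNA genes took 32.7% of the reads of H6 (95% Wilson interval 32.6 to 32.9) and between 0.525% and 7.57% in the other 5 libraries. Mitochondrially encoded messenger RNAs took 18.8% of the reads of L25 and between 1.33% and 5.49% in the others. The first principal component (34.5% of the variance over the genes compared) set these 2 libraries against the other 4, and the groups were separated on the third (14.9%). The lymph node label was met by its markers, with Glycam1, a mucin of high endothelial venules, at values between 1599.8 and 2784. Kidney epithelial genes summed to between 10.5 and 21.8 in the 6 libraries against 9336 or more in the kidney libraries of the same table.

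The promoters of Fcgr4 and Cd209g, which lead the comparison in opposite directions, are shown because these genes belong to clusters of related receptors. That of Cd209f, a related gene that passed no test below at an adjusted p under 0.05, is shown beside Cd209g. The 250 bases before the annotated start are given 5′ to 3′ from RefSeq on GRCm38.p6. In the promoter of Fcgr4 (chr1:171018676-171018925, plus strand) capitals mark a match to GAAANNGAAA, the core of interferon-stimulated response elements, at -73, and a match to the complement of GAGGAAGT, a PU.1 motif, at -24. In the promoters of Cd209g (chr8:4134486-4134735, plus strand) and Cd209f (chr8:4105765-4106014, minus strand) capitals mark TGANTCA, an AP-1 motif, and TATAAA. Positions count from the RefSeq start, which for Fcgr4 and Cd209g lies downstream of the start of the GENCODE gene span given with the values.
Fcgr4: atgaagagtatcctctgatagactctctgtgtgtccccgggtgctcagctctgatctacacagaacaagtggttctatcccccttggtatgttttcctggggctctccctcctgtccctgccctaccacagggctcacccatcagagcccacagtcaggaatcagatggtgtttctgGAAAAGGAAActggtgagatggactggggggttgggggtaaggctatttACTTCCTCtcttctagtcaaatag
Cd209g: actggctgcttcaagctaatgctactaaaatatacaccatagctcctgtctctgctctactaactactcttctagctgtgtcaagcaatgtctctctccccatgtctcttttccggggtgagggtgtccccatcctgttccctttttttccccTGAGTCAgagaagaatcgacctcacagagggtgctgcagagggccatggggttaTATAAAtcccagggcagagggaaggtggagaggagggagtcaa
Cd209f: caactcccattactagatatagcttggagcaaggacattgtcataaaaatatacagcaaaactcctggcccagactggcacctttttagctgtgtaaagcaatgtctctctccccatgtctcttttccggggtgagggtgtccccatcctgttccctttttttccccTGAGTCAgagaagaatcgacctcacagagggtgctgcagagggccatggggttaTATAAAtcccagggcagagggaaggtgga
The Cd209f and Cd209g stretches were 80.1% identical over 236 bases when shifted by 14 bases against each other. On either strand, GAAANNGAAA was found before the start of 3.46% of 27025 genes, GAGGAAGT before 2.79%, TGANTCA before 7.82% and TATAAA before 14.3%. These matches describe letters in these windows and were not tested as binding sites.

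Proteinuric nodes had higher values of myeloid receptor genes, led by Fcgr4, which encodes the activating Fc gamma receptor IV, and by Clec4a3, Clec4b1 and Sirpb1a. Values of Cd5l, which encodes a secreted macrophage protein, were also higher. Proteinuric nodes had lower values of the C-type lectin genes Cd209g, Cd209f and Cd209d and of mast cell proteases. All 21 tested T-cell genes had a lower log2 mean in proteinuric nodes and 24 of 25 type I interferon-stimulated genes a higher one, by small amounts. None of these differences passed the test at an adjusted p under 0.05 with limma on log2(value + 1) (0 of 6810 genes, 0%). The smallest adjusted p was 0.10 (limma, Benjamini-Hochberg), shared by Fcgr4, Sirpb1a, Clec4b1 and Cd5l, and 11 genes were below 0.2. At an unadjusted p under 0.05, 215 genes differed (3.16%), 91 higher in proteinuric (1.34%) and 124 higher in antibody-positive nodes (1.82%). The libraries of the groups did not overlap for 170 genes higher in proteinuric nodes (2.5%) and 414 higher in antibody-positive nodes (6.08%).

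Other tests on the recovered reads gave different counts. The edgeR quasi-likelihood test gave 0 DE genes with TMM (228 at an unadjusted p under 0.05) and 0 with DESeq2 size factors (237). The edgeR likelihood ratio test gave 37 DE genes, 26 up-regulated in proteinuric nodes (0.382%) and 11 down-regulated (0.162%). DESeq2 gave 13 among the 5709 genes with an adjusted p, 9 up-regulated (0.158%) and 4 down-regulated (0.0701%), and 12 of the 13 were also called by the likelihood ratio test. A limma fit of all 14 libraries gave 7 DE genes, of which Fcgr4, Cd5l, Cd300e, Sirpb1a and Wfdc17 were higher and Cd209g and Gm1821 lower in proteinuric nodes. That fit also took its spread from kidney and TLS libraries, and treated libraries of the same mouse as independent. Its adjusted p-values therefore do not measure the spread of lymph nodes alone. Leaving out D11 gave 5, all higher (Fcgr4, Cd5l, Clec4a3, Clec4b1 and Cd300e). In at least 1 of these fits 38 genes were called, 27 higher and 11 lower in proteinuric nodes. Genes named below from these 38, and list members at an unadjusted p under 0.05, were chosen after their values were seen. DE refers to an adjusted p under 0.05 in the fit that is named. Of the 27 genes, 19 had a RefSeq promoter, which held GAAANNGAAA in 4 (Clec4b1, Fcgr4, Saa3 and Sirpb1a), GAGGAAGT in 1 (Fcgr4), TGANTCA in 3 (Clec12a, Fcrl5 and Fgl2) and TATAAA in 2 (Fcrl5 and Il1b). Of the 11, 4 had a promoter, with TGANTCA in 1 (Cd209g) and TATAAA in 2 (Cd209g and Mcpt4).

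Among the 11 tested Fc receptor and adaptor genes, 4 had an unadjusted p under 0.05 (limma), all higher in proteinuric nodes, beside 1.34% of all genes. The median log2 fold change was 0.98 against -0.08 over all genes. Fcgr4 (chr1:171018920-171029761) had values of 5.56, 20.0 and 14.9 in D10, D11 and L25 and of 126, 152 and 163 in H6, H20 and H117. Every proteinuric library was over 6 times the highest antibody-positive one, and C45 (11.6) lay among the antibody-positive libraries. The means were 13.5 ± 7.31 and 147 ± 19.1 (SD, n = 3 each), a log2 fold change of 3.5 with a standard error of 0.44 (adjusted p = 0.10, limma). Fcgr4 was DE by the edgeR likelihood ratio test (adjusted p = 3.64e-06), by DESeq2 (adjusted p = 2.79e-07), by limma over all 14 libraries (adjusted p = 0.0137) and by limma without D11 (adjusted p = 0.0488). In the other tissues of proteinuric mice Fcgr4 lay between 39.3 and 61.1 in TLS and between 5.32 and 22.8 in kidney, below every proteinuric lymph node. In a bulk sample, fewer cells of a type and less RNA per cell cannot be told apart.

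Fcer1g, the gamma chain that Fcgr4 signals through, had values of 58.4, 83.7 and 74.6 against 154, 238 and 143, without overlap (log2 fold change 1.27, standard error 0.36). Its homologue Tyrobp, an adaptor of many myeloid receptors, had values of 114.9, 124 and 91.8 against 351, 215 and 135. Both were lower in every antibody-positive library than in any proteinuric one. Fcrl5, an Fc receptor-like protein of B cells, had 3.71, 3.81 and 2.29 against 11.6, 24.6 and 29.9 (log2 fold change 2.36, standard error 0.39), DE by the edgeR likelihood ratio test (adjusted p = 7.51e-05) and DESeq2 (adjusted p = 0.0376). The groups overlapped for the other Fc gamma receptors. Fcgr1, the high-affinity receptor, had values of 1.85, 6.66 and 12.6 against 17.4, 14.2 and 11.3, and the inhibitory Fcgr2b of 4.63, 8.56 and 4.59 against 5.80, 5.68 and 4.86. For Fcgr2b the groups overlapped and the log2 fold change was -0.06 (95% interval -0.88 to 0.76).

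**Figure D1:**
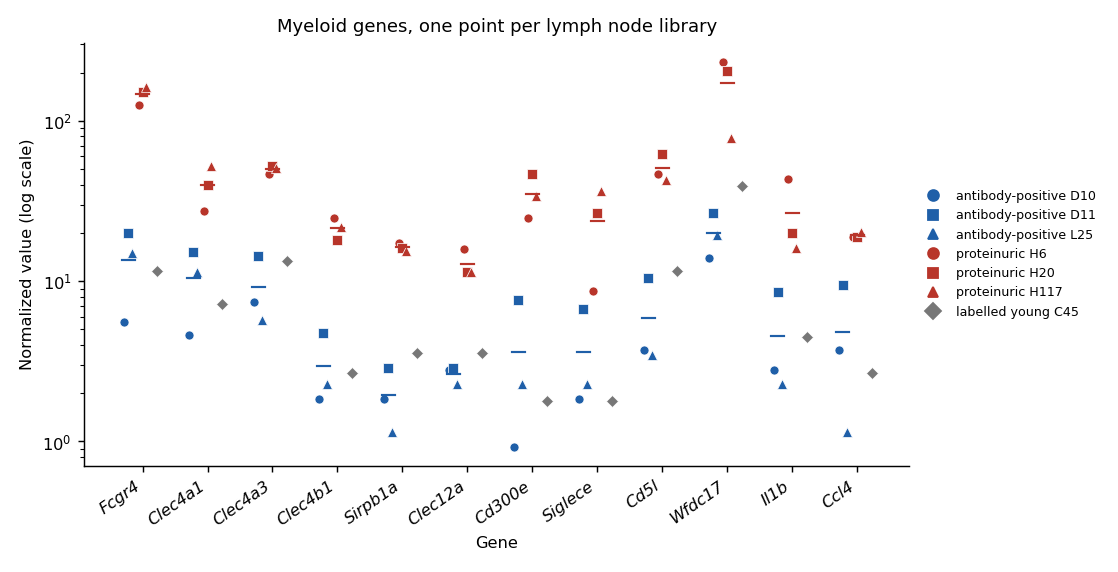
Normalized values (log scale) of 12 myeloid genes in each lymph node library, 3 antibody-positive (blue), 3 proteinuric (red) and the library labelled young (grey), with short lines at the group means. For all 12 genes the 3 proteinuric libraries lay above the 3 antibody-positive ones, for Siglece by the smallest steps (H6 at 8.69 and D11 at 6.66).

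C-type lectin receptors of the Clec4 cluster on chromosome 6 showed the same order of groups as Fcgr4. All 4 tested members had a log2 fold change above 0 (median 2.17), and 3 had an unadjusted p under 0.05, beside 1.34% of all genes. Clec4a3 (chr6:122952515-122969875) had values of 7.41, 14.3 and 5.74 in D10, D11 and L25 and of 46.4, 52.1 and 51.0 in H6, H20 and H117. The proteinuric libraries were close to each other and at least 3 times the highest antibody-positive one (log2 fold change 2.41, standard error 0.35, adjusted p = 0.133 by limma). Its neighbour Clec4a1 (chr6:122921848-122934619) had 4.63, 15.2 and 11.5 against 27.5, 39.8 and 52.6, and Clec4b1 (chr6:123049962-123071555) had 1.85, 4.76 and 2.29 against 24.6, 18.0 and 21.9. The groups did not overlap for either gene. Clec4b1 shares 436 bases at 96.3% identity with Clec4a2, so reads of these 2 genes could have been split, and Clec4a2, below the filter, had values of 1.85, 1.90 and 2.29 and 7.25, 5.68 and 4.05. The activating receptor gene Clec4n (dectin-2) overlapped between groups, with 20.4, 19.0 and 20.7 against 31.9, 25.6 and 16.2. Clec12a, an inhibitory lectin of myeloid cells elsewhere on chromosome 6, had 2.78, 2.85 and 2.29 against 15.9, 11.4 and 11.3 (log2 fold change 1.92, standard error 0.30). Each proteinuric library was at least 3 times every antibody-positive one, and Clec12a was DE by the edgeR likelihood ratio test (adjusted p = 5.23e-04).

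Single members of other receptor families had the same order of groups. Of 4 tested Cd300 and 5 tested Siglec genes, 2 in each family had a log2 fold change below 0, among them Cd300lh (75.1, 75.2 and 47.0 against 24.6, 35.1 and 64.7). Sirpb1a, an activating signal-regulatory protein, had 3 reads in all in the antibody-positive libraries and values of 17.4, 16.1 and 15.4 in the proteinuric ones, a ratio of 15.1 (95% counting interval 4.85 to 76.0). Its transcript is 96.9% identical to that of Sirpb1b, and the counting of such reads is uncertain. Cd300e, an activating receptor of monocytes, had values of 0.927, 7.61 and 2.29 against 24.6, 46.4 and 34.0 (log2 fold change 3.20, standard error 0.53). D11 was the highest of the antibody-positive libraries for Cd300e, and without it the gene was DE (adjusted p = 0.0488, limma). Siglece, an inhibitory receptor for sialic acid, had 1.85, 6.66 and 2.29 against 8.69, 26.5 and 36.4, with H6 close to D11. Pirb and Lilrb4, inhibitory receptors of the paired Ig-like family, had 11.1, 16.2 and 12.6 against 18.8, 30.3 and 28.3 and 13.9, 16.2 and 19.5 against 24.6, 28.4 and 37.2, and neither overlapped. The Ly49-family genes Klra2 and Klra17 had values of at most 4.59 in antibody-positive and of at least 8.53 in proteinuric nodes. Klra2 had 3 reads in all in antibody-positive nodes and a ratio of 11.1 (counting interval 3.47 to 56.4). Of the 8 tested Ms4a genes, which encode tetraspan membrane proteins, 3 had an unadjusted p under 0.05, beside 1.34% of all genes in this direction. Among them were Ms4a6d with 4.63, 7.61 and 9.18 against 34.8, 23.7 and 21.0 and Ms4a7 with 2.78, 2.85 and 3.44 against 13, 7.58 and 5.67.

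Several genes for secreted proteins were called in an alternative fit, while the list of acute-phase and innate inflammation genes had a median of 0.27 with 4 of 11 members below 0. Cd5l, a scavenger-receptor protein secreted by tissue macrophages, had values of 3.71, 10.5 and 3.44 in D10, D11 and L25 and of 46.4, 62.5 and 42.9 in H6, H20 and H117. All proteinuric libraries were at least 4 times the highest antibody-positive one, D11 (log2 fold change 3.04, standard error 0.41, adjusted p = 0.10 by limma and 0.0488 without D11). The values of Wfdc17, a small secreted protein of activated macrophages, were 13.9, 26.6 and 19.5 against 233, 205 and 77.7. H117 was the lowest proteinuric library and still above all antibody-positive ones, and the gene was DE by DESeq2 (adjusted p = 1.77e-04). Il1b, the inflammatory cytokine interleukin 1 beta, had 2.78, 8.56 and 2.29 against 43.5, 19.9 and 16.2, with H6 the highest library. Fgl2, a fibrinogen-like prothrombinase of macrophages and regulatory T cells, had 4.63, 3.81 and 1.15 against 13, 8.53 and 14.6. Saa3, an acute-phase protein made by macrophages, had 3 reads in all in antibody-positive nodes, all in L25, and values of 30.4, 35.1 and 8.09 in proteinuric nodes. The ratio was 21.8 with a counting interval of 7.14 to 109. S100a9, a granulocyte and monocyte calprotectin subunit, had no read in any antibody-positive library and values of 136, 22.7 and 7.28 in proteinuric ones, at least 12.1 times higher against the floor per library. Most of that value came from H6, and the limit is 3.27 without it. Its partner S100a8 was high in H6 (88.4) and had 4.74 in H20 and no read in H117, and the neutrophil granule genes Ltf and Lcn2 had no read in any of the 6 libraries. The summed values of the neutrophil list (5 of 18 members tested) were 23.2, 43.8 and 40.2 against 507, 264 and 113. Wfdc17, taken in this list in place of Wfdc21, and Il1b, both also made by macrophages, made up most of each proteinuric sum.

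General macrophage genes had smaller log2 fold changes. Of the 15 tested macrophage core genes, 13 had a log2 fold change above 0 (median 0.57, 0.83 without L25 and H6), 4 had an unadjusted p under 0.05 and 4 did not overlap, all higher in proteinuric nodes. In this direction 1.34% of all genes were past that threshold and 2.5% did not overlap. Itgam, the CD11b integrin, is 99.9% identical over 3453 bases to the annotated gene Gm49368 and had 4.63, 3.81 and 5.74 against 10.1, 17.1 and 25.1, and Itgax (CD11c), an integrin of dendritic cells and some macrophages, had 6.49, 12.4 and 10.3 against 13, 39.8 and 55.0. Neither overlapped, and in each case H6 was the lowest proteinuric library. Cd14, a co-receptor for lipopolysaccharide, had 6.49, 2.85 and 3.44 against 7.25, 12.3 and 11.3. C1qb, a subunit of complement C1q, had 178, 232 and 174 against 333, 365 and 304 without overlap, whereas its partners C1qa and C1qc overlapped. The mean log2 value of 2 defining macrophage genes was not higher in proteinuric nodes. Csf1r, the receptor for macrophage colony-stimulating factor, had 60.2, 58.0 and 103 against 33.3, 59.7 and 68.8 (log2 fold change -0.46, 95% interval -1.36 to 0.45), and the lysosomal protein gene Cd68 had 59.3, 59.0 and 48.2 against 30.4, 59.7 and 59.1. Lyz2, the lysozyme of monocytes and macrophages, had 1429, 1288 and 933 against 1856, 1398 and 1306. The groups overlapped for all 3 of these genes. The 9 tested monocyte genes had a median of 0.46, with 7 above 0. Of these genes 2 were higher and 1 lower in proteinuric nodes without overlap, beside 2.5% and 6.08% of all genes. The lower 1 was Lyz1, whose lowest antibody-positive library (30.4) was just above the highest TRIzol library (30.3). Ms4a6c was the only monocyte-list gene with an unadjusted p under 0.05 in limma, with 25.0, 17.1 and 24.1 against 55.1, 37.9 and 42.1.

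Of the 13 tested inflammatory chemokine and receptor genes, 5 had an unadjusted p under 0.05 in limma and were higher in proteinuric nodes (median of the list 0.50). Over all genes that share was 1.34%. Ccl4, a chemokine that attracts monocytes and T cells, had values of 3.71, 9.51 and 1.15 in D10, D11 and L25 and of 18.8, 18.9 and 20.2 in H6, H20 and H117. The proteinuric libraries were nearly equal and about 2 times the highest antibody-positive one. Ccl4 was DE by the edgeR likelihood ratio test (adjusted p = 0.0172) and not by DESeq2 (adjusted p = 0.889). Ccl6, Ccl12 and Cxcl14 were also past the unadjusted threshold, with Ccl12 at 14.8, 11.4 and 5.74 against 39.1, 36.9 and 12.9, where D10 exceeded H117. The interferon-gamma-induced ligand genes Cxcl9 and Cxcl10 had log2 fold changes of -0.37 (95% interval -0.98 to 0.25) and 0.01 (-0.88 to 0.89). Ccl5, made by T and NK cells, had 125, 97.0 and 51.6 against 58.0, 58.7 and 64.7, with L25 below the proteinuric libraries.

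**Figure D2:**
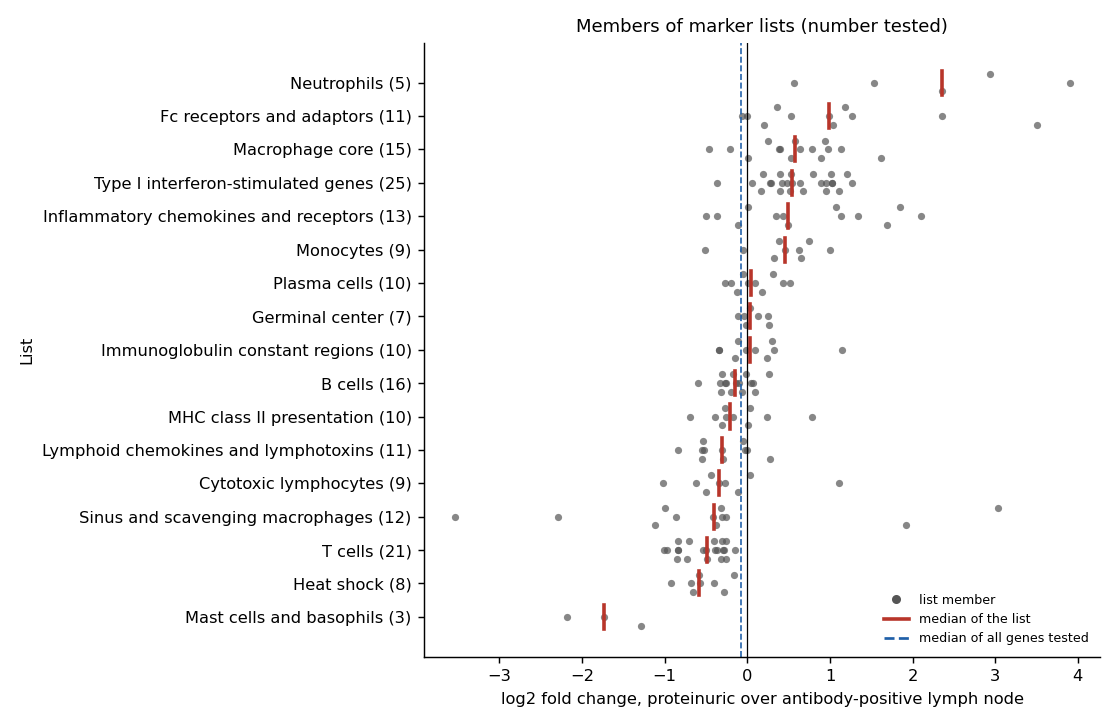
Log2 fold change of every tested member (points) of 17 marker lists between proteinuric and antibody-positive nodes, with the list median (red line) and the median of all 6810 genes (dashed line, -0.08). The medians of the neutrophil, Fc receptor, macrophage core and type I interferon lists lie to the right of 0, all 21 T-cell genes and 8 heat shock genes to the left, and the sinus macrophage list is spread to both ends.

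Type I interferon-stimulated genes had small differences in 1 direction. Of 25 tested members, 24 had a log2 fold change above 0, with a median of 0.54 (0.54 to 0.85 over the other scalings, 0.93 without L25 and H6). Over all genes 59.1% were below 0. The genes of the list summed to 831, 1296 and 1236 in D10, D11 and L25 and to 2107, 1770 and 1232 in H6, H20 and H117. These sums overlapped, with H117 below D11 and L25. Only 4 members had an unadjusted p under 0.05 in limma (Irf7, Usp18, Mx1 and Oas1a), and none was DE in any fit. Over all genes 1.34% were past this threshold and higher in proteinuric nodes. Irf7, the transcription factor that amplifies interferon production, had values of 24.1, 55.2 and 31 in D10, D11 and L25 and of 58.0, 89.0 and 68.8 in H6, H20 and H117. H6 was just above D11, and the groups did not overlap. Usp18, a deubiquitinase that limits interferon signalling, had 13.9, 17.1 and 8.03 against 27.5, 31.3 and 21.0, and Mx1, an antiviral GTPase, had 2.78, 3.81 and 3.44 against 4.35, 14.2 and 12.9. Oas1a, an antiviral oligoadenylate synthetase, had 6.49, 19.0 and 18.4 against 24.6, 26.5 and 29.1. D10 was the lowest library for Irf7, Mx1 and Oas1a, and L25 for Usp18. Isg15, a ubiquitin-like protein, overlapped (26.0, 70.4 and 60.8 against 100.0, 125 and 59.1), and so did Ifit3 (4.63, 26.6 and 21.8 against 24.6, 47.4 and 27.5). The interferon-gamma-induced GTPases and chemokines had a median of -0.15 over 14 genes and no member with an unadjusted p under 0.05.

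The sinus macrophage list went in both directions. Of 12 tested members, Cd5l and Clec4a1 were higher in proteinuric nodes and the other 10 had lower means, 4 of them with an unadjusted p under 0.05 in limma. Over all genes 1.82% were past this threshold and lower in proteinuric nodes. The Cd209 genes encode SIGN-related C-type lectins, of which Cd209b (SIGNR1) is a receptor of sinus and marginal zone macrophages. Cd209g (chr8:4134098-4137707) had values of 37.1, 26.6 and 49.3 in D10, D11 and L25 and of 1.45, 6.63 and 0.809 in H6, H20 and H117. H6 and H117 had no read and H20 had 6, whereas each antibody-positive library had at least 27. The log2 fold change was -3.54 with a standard error of 0.53 (adjusted p = 0.155, limma), and the gene was DE by the likelihood ratio test (adjusted p = 7.51e-05), DESeq2 (adjusted p = 0.0234) and limma over all 14 libraries (adjusted p = 0.0137). Cd209f had 22.2, 16.2 and 45.9 against 4.35, 10.4 and 1.62, and Cd209d had 14.8, 7.61 and 16.1 against 2.90, 3.79 and 0.809, both without overlap. Cd209d was DE by the likelihood ratio test (adjusted p = 0.0190), and Cd209f was not DE in any fit (adjusted p = 0.147 by the likelihood ratio test). Cd209g and Cd209f share 446 bases at 99.6% identity, and reads of the shared stretch could count for either. Cd209b itself overlapped, with 133, 51.4 and 179 against 60.9, 63.5 and 51.8, and D11 was as low as the proteinuric libraries. C45 had values of 19.7 for Cd209g, 17.0 for Cd209f, 11.6 for Cd209d and 161 for Cd209b, above every proteinuric library for each.

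Other receptors of sinus macrophages had smaller differences. Timd4, a phosphatidylserine receptor that takes up apoptotic cells, had 87.1, 55.2 and 97.5 against 44.9, 31.3 and 40.5 without overlap (log2 fold change -1.0, standard error 0.34). Marco, a scavenger receptor for particles, had 126, 75.2 and 132 against 29.0, 81.5 and 50.2, where D11 was below H20. Siglec1, the sialoadhesin of subcapsular sinus macrophages, overlapped (16.7, 13.3 and 19.5 against 5.80, 15.2 and 23.5), and so did Folr2 (17.6, 14.3 and 21.8 against 14.5, 18.9 and 11.3). The list median was -0.40 and ranged from -0.73 to -0.26 over the other scalings. Lyve1, of lymphatic endothelium and some macrophages, had 18.5, 14.3 and 25.2 against 5.80, 15.2 and 13.8.

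Mast cell proteases were lower in every proteinuric library. For Cma1, L25 (9.18) and H6 (8.69) lay closer than the value of 1 read in H6 (1.45). Mcpt4, a chymase, had values of 17.6, 23.8 and 25.2 against 7.25, 7.58 and 0.809, Tpsb2, a tryptase, of 9.27, 10.5 and 13.8 against 2.90, 5.68 and 0.809, and Cma1, a second chymase, of 9.27, 15.2 and 9.18 against 8.69, 5.68 and 0.809. H117 had no read of any of these 3 genes. Cpa3, the mast cell carboxypeptidase, was below the filter and had 6.49, 10.5 and 6.88 against 1.45, 2.84 and 0.809. Only Mcpt4 was called in any fit (likelihood ratio test, adjusted p = 0.0428), and its limma log2 fold change was -2.19 with a standard error of 0.58. C45 had 17.0 for Mcpt4, 10.7 for Cma1 and 8.95 for Cpa3, within or close to the antibody-positive range, but 4.47 for Tpsb2, within the proteinuric range.

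**Figure D3:**
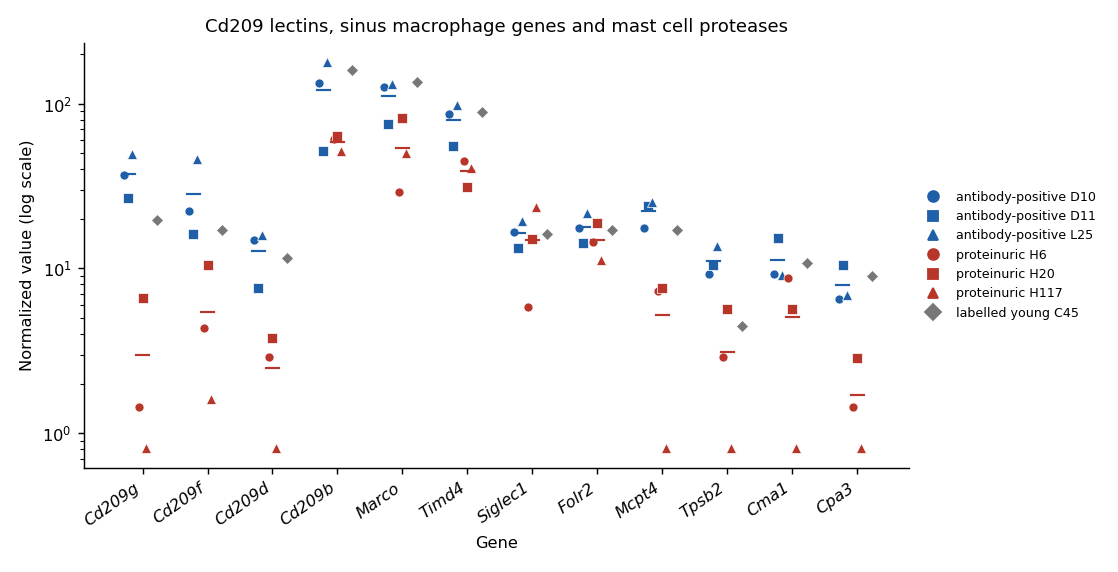
Normalized values (log scale) of 4 Cd209 lectins, 4 further sinus macrophage genes and 4 mast cell proteases in each lymph node library, with group means as short lines. Cd209g, Cd209f, Cd209d, Timd4 and the 4 proteases do not overlap between antibody-positive (blue) and proteinuric (red) nodes, while Cd209b, Marco, Siglec1 and Folr2 do.

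All 21 tested T-cell genes had lower means in proteinuric nodes, with a median log2 fold change of -0.49 (-0.48 to -0.42 over the other scalings, -0.70 without L25 and H6). Cd4, Cd8b1, Cd5 and Ccr7 had an unadjusted p under 0.05 in limma, 7 members did not overlap, and none was DE in any fit. Over all genes, 1.82% were past this threshold and 6.08% did not overlap in this direction. Cd4, the co-receptor of helper T cells, had values of 59.3, 54.2 and 56.2 in D10, D11 and L25 and of 15.9, 34.1 and 38.8 in H6, H20 and H117. The antibody-positive libraries were nearly equal and all above the proteinuric ones, of which H6 was the lowest. Cd8b1, a chain of the cytotoxic T-cell co-receptor, had 79.7, 51.4 and 49.3 against 33.3, 32.2 and 23.5, whereas its partner Cd8a overlapped (49.1, 27.6 and 29.8 against 24.6, 35.1 and 20.2). Ccr7, the receptor that guides naive T cells and dendritic cells into the node, had 102, 80.9 and 47.0 against 42.0, 39.8 and 39.7, and D10 and D11 were about 2 times every proteinuric library. Trbc2, a T-cell receptor beta constant region, did not overlap (418, 319.6 and 247 against 214, 217 and 232), and Trac, the alpha constant region, did (253, 177 and 104 against 92.7, 78.6 and 111). The genes of the list summed to 2084, 1623 and 1203 against 1113, 1048 and 1092, and L25 lay nearest to the proteinuric range. C45 summed to 1353, among the antibody-positive libraries.

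**Figure D4:**
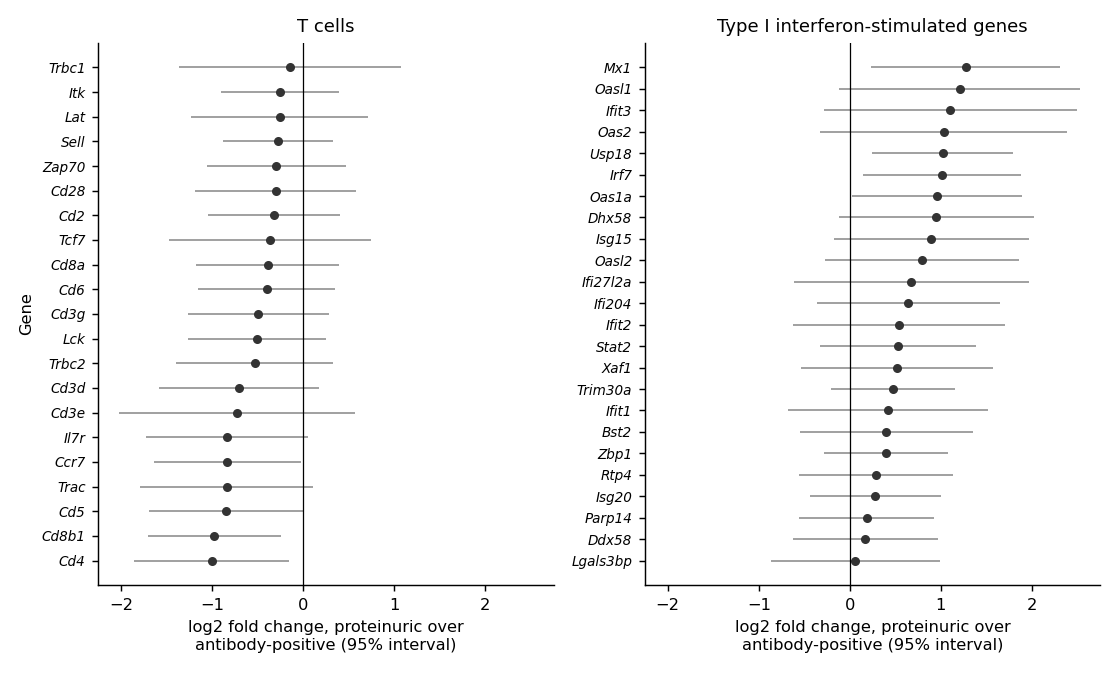
Log2 fold changes with 95% intervals (limma) of the 21 tested T-cell genes (left) and 24 of the 25 tested type I interferon-stimulated genes (right), proteinuric over antibody-positive, without 1 member that lies below 0. Every T-cell gene shown lies below 0 and every interferon-stimulated gene shown above it, but the interval excludes 0 for only 4 genes in each list, and members of a list are not replicates.

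Of 9 tested genes of cytotoxic cells 7 were below 0, beside 59.1% of all genes, and 2 were above it (up to 1.10). In limma 2 had an unadjusted p under 0.05, and 3 did not overlap, all lower in proteinuric nodes. In this direction 1.82% of all genes were past that threshold and 6.08% did not overlap. Prf1 (perforin) had 11.1, 14.3 and 6.88 against 2.90, 6.63 and 4.86, without overlap. Ctsw (cathepsin W) had 32.4, 38.1 and 27.5 against 20.3, 22.7 and 19.4 and did not overlap either. Gzma, a granzyme, overlapped (30.6, 26.6 and 43.6 against 31.9, 25.6 and 21.0). Follicular helper and regulatory T-cell genes had a median of -0.01 over 7 genes, with Pdcd1 at 12, 17.1 and 18.4 against 13, 20.8 and 13.8 and Foxp3 at 11.1, 9.51 and 2.29 against 2.90, 8.53 and 8.09. The chemokines that organise lymphoid tissue had a median of -0.31 over 11 genes. Cxcl13, which draws B cells to follicles, had 99.2, 67.5 and 98.7 against 60.9, 52.1 and 65.6 without overlap (log2 fold change -0.55, 95% interval -1.27 to 0.18). Ccl21a, of the T-cell zone, had 906, 835 and 813 against 419, 930.3 and 535 and overlapped, as did Ccl19 (209, 151 and 108 against 174, 154 and 119.8) and Ltb (210.4, 282 and 114.7 against 129, 183 and 152).

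Of 15 genes that the study names for lymphoid structure formation or for nephritis, 13 were tested, 2 did not overlap (Cxcl13 and Ccr7) and 1 had an unadjusted p under 0.05 in limma (Ccr7). Over all genes 6.08% did not overlap and 1.82% were past this threshold in the same direction. The study measured most of them in kidney, and named Ptpn22, Tnfsf13b and C1q from a comparison of profiles that included lymph nodes, so for those the list is not independent evidence. Glycam1 and Vcam1, of high endothelial venules and stromal cells, had log2 fold changes of -0.36 (95% interval -1.35 to 0.64) and -0.42 (-1.08 to 0.23). The adhesion molecule gene Icam1 had -0.08 (-0.89 to 0.72), the lymphotoxin receptor gene Ltbr 0.27 (-0.45 to 0.99) and the BAFF gene Tnfsf13b -0.01 (-0.65 to 0.63). The B-cell coactivator gene Pou2af1 had 0.09 (-0.65 to 0.84), the phosphatase gene Ptpn22 0.28 (-0.45 to 1.01) and C1qa 0.53 (-0.50 to 1.56). Tnfsf11 (RANKL) was below the filter, with 5.56, 1.90 and 4.59 against 4.35, 2.84 and 0.809.

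The groups overlapped for every tested gene on the B-cell, plasma cell and germinal center lists. Fcrl5, described above, is not on these lists and did not overlap. None of the 16 tested genes on the B-cell list, 10 on the plasma cell list or 7 on the germinal center list had an unadjusted p under 0.05 in limma. The list medians were -0.15, 0.05 and 0.03. The B-cell genes summed to 1140.0, 1915 and 899 against 965, 1386 and 1149, with D11 the highest library. Xbp1, a transcription factor of secreting plasma cells, had 154, 141 and 145 against 129, 134 and 141. Among the constant regions, Ighm was lower in every proteinuric library (4563, 5187 and 4653 against 3636, 4274 and 3441), by a log2 fold change of -0.35 whose 95% interval ran from -1.37 to 0.68. Ighg2c, a switched isotype, overlapped (9036, 5383 and 7592 against 11723, 8219.9 and 6340.1). Constant region genes together took between 4.13% (L25) and 7.98% (D10) of the reads, and 5.12%, 6.87% and 6.36% in H6, H20 and H117.

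Variable segments were compared 1 by 1. Of 98 tested kappa variable segments, 9 were higher and 5 lower in proteinuric nodes at an unadjusted p under 0.05, beside 1.34% and 1.82% of all genes. In each direction 5 did not overlap, beside 2.5% and 6.08% without overlap over all genes. Igkv11-125 had 64.0, 95.1 and 96.4 against 14.5, 37.9 and 12.9, with no overlap (log2 fold change -2.06, standard error 0.44, adjusted p = 0.526 by limma). Igkv14-130 ranged over all libraries, with 0.927, 30.4 and 13.8 against 220.3, 18.9 and 210.4, and D11 exceeded H20. Both segments were named after their values were seen. Over all 236 tested segments of antigen receptors, 11 were higher and 6 lower in proteinuric nodes at an unadjusted p under 0.05, beside 1.34% and 1.82% of all genes. The median log2 fold change of these segments was 0.15.

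Of 15 tested endothelial genes (10 of blood endothelium, 4 of high endothelial venules and 1 of lymphatics), 3 were lower in every proteinuric library, beside 6.08% of all genes. Cldn5, of endothelial tight junctions, had 26.0, 17.1 and 25.2 against 11.6, 17.1 and 10.5, Eng (endoglin) had 32.4, 38.1 and 29.8 against 14.5, 18.0 and 26.7, and Madcam1, an addressin, had 13, 13.3 and 6.88 against 2.90, 6.63 and 4.05. All 3 had an unadjusted p under 0.05 in limma and no overlap, although D11 and H20 nearly met for Cldn5. Acta2, the smooth muscle actin, had 69.5, 30.4 and 48.2 against 5.80, 32.2 and 12.1, with D11 below H20. The 8 tested heat shock genes all had lower means in proteinuric nodes (median -0.58), beside 59.1% of all genes. Of the 8, 2 had an unadjusted p under 0.05 in limma and 3 did not overlap, beside 1.82% and 6.08% of all genes in this direction. Hsp90aa1 led the list, with 140.0, 115.1 and 135 against 66.7, 61.6 and 76.9. C45, isolated with TRIzol, had 201, above all 6. Adipocyte genes, which mark fat around the node, summed to 374, 2013 and 6703 against 1085, 2893 and 407, and hemoglobin and platelet genes to 473, 106 and 3096 against 75.4, 919.8 and 192. L25 was the highest library for both, and the part of these tissues in the results above was not tested. Mitochondrially encoded messenger RNAs had a median log2 fold change of -1.38, and of -0.41 without L25 and H6.

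Several genes higher in antibody-positive nodes were copies of other genes or RNAs that do not encode proteins. Gm10222, on chromosome 1, had 108, 109 and 114 against 30.4, 36.9 and 24.3, without overlap (log2 fold change -1.84, standard error 0.30) and with an adjusted p of 0.00363 by DESeq2. It is identical over all 294 bases to the mitochondrial gene mt-Nd4l, which had 688, 684 and 3987 against 175, 399 and 363. Gm1821 is 97.7% identical to the ubiquitin gene Ubb over 617 bases and had 41.7, 28.5 and 19.5 against 4.35, 4.74 and 8.90, while Ubb overlapped (952, 1154 and 990.1 against 894, 1451 and 741). Gm4149 is 99.6% identical to the ribosomal protein gene Rpl37a and had 13.9, 6.66 and 22.9 against no read in any proteinuric library, at least 2.50 times lower against the floor per library. Rpl37a had 767, 576 and 992 against 816, 609 and 383 and overlapped. Gm11410 is 92.9% identical to mt-Cytb and had 2.78, 5.71 and 25.2 against no read, and Gm37401 overlaps Rhoa on the opposite strand and had 26.9, 4.76 and 12.6 against 2 reads in all, both in H20. For these copies and antisense genes, the assignment of reads is uncertain, and whether counting used strand is not given in the sources used here.

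Rmrp, the RNA of a mitochondrial RNA processing ribonuclease, had 11.1, 68.5 and 5.74 and no read in H6, H20, H117 or C45, at least 4.91 times lower in proteinuric nodes. D11 carries this limit, which is 1.45 without it. It overlaps Ccdc107 on the opposite strand by 124 bases, and Ccdc107 had 19.5, 17.1 and 13.8 against 14.5, 17.1 and 12.9. Actc1, the cardiac actin, had 49.1, 9.51 and 3.44 and no read in the proteinuric nodes. Vaultrc5, a vault RNA, had reads in D10 and D11 only (20.4 and 33.3). Such transcripts of RNA polymerase III lack a poly(A) tail. Among the lymph node libraries, the 7SL RNA genes Rn7s1 and Rn7s2 did not overlap between the kits. Rn7s1 had 540.4, 579 and 329 in the miRNeasy libraries, 179.7, 18.0 and 316 in H6, H20 and H117 and 6.26 in C45. H117 came close to L25 for Rn7s1, and H20 and C45 were far lower. Of the 9 tested small RNAs of this polymerase, 3 were lower in every proteinuric library, beside 6.08% of all genes, and the groups overlapped for the other 6. The 9 summed to between 827 and 2667 in antibody-positive nodes. Kidney and TLS libraries, also isolated with TRIzol, reached 3135 and 4833, above these nodes, and ranged down to 14.1 and 18.1. Snord55, a small nucleolar RNA called by DESeq2 alone, had 71 reads in H6 and none in the other 6 lymph node libraries. The mitochondrial transfer RNA genes mt-Ty and mt-Tn were higher in proteinuric nodes by the edgeR likelihood ratio test, mt-Ty with 0.927, 6.66 and 1.15 against 47.8, 17.1 and 13.8, whereas mt-Tn had reads in H6 and H117 only. Further called genes were AF251705 (7.41, 9.51 and 6.88 against 65.2, 25.6 and 29.1), Khnyn (3.71, 3.81 and 2.29 against 5.80, 16.1 and 14.6) and Gm29284, which is 98.4% identical to Sp110 and had 1.85, 1.90 and 1.15 against 10.1, 8.53 and 10.5. The part of RNA isolation in these values was not tested.

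**Figure D5:**
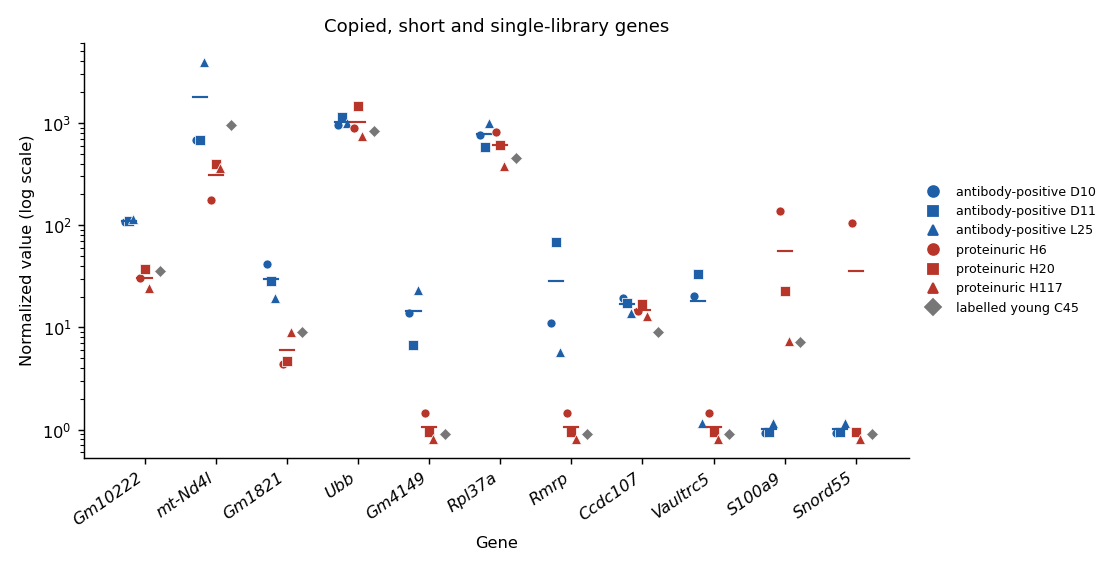
Normalized values (log scale) of 3 copied genes beside their parents, of Rmrp beside the overlapping Ccdc107, and of Vaultrc5, S100a9 and Snord55 in each lymph node library, with group means as short lines. Gm10222, Gm1821, Gm4149 and Rmrp separate antibody-positive (blue) from proteinuric (red) nodes, whereas Ubb, Rpl37a and Ccdc107 do not, and Snord55 rests on H6.

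The library labelled young shares the RNA kit of the proteinuric group. Over all 6810 genes, C45 lay nearer to the antibody-positive mean for 49.1% on the log2 scale. Of the 27 genes called in an alternative fit and higher in proteinuric nodes, it lay nearer to the antibody-positive mean for 21 (77.8%) and below the proteinuric range for 24. For the 11 called genes that were lower in proteinuric nodes it lay nearer to the antibody-positive mean for 5 and to the proteinuric mean for 6. Cd209g and Mcpt4 were among the first, and Gm10222, Gm1821, Gm4149 and Rmrp among the second. Of the 414 genes without overlap that were higher in antibody-positive nodes, 269 were also above C45, and 113 were above all 11 TRIzol libraries of the table, which include 7 of kidney and TLS. Of the 170 in the other direction, the antibody-positive libraries were also below C45 for 88 and below all 11 TRIzol libraries for 10. C45 is 1 library of a 4-week-old mouse, and its values carry no replicate error.

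Several other pathways had no member past the unadjusted threshold. Of 26 tested cell cycle genes none had an unadjusted p under 0.05 in limma (median log2 fold change 0.06), and the same held for 22 lysosomal genes (-0.02), 10 genes of MHC class II presentation (-0.22), 12 complement genes (-0.16), 14 immediate early genes (0.14) and 16 stromal matrix genes (-0.22). The 79 cytosolic ribosomal protein genes had a median of -0.15, and the 74 nuclear genes of oxidative phosphorylation -0.20. The 6 tested dendritic cell genes had a median of -0.37, with 4 below 0. The other 2, Itgax and Batf3, did not overlap, and only Itgax was past the unadjusted threshold. In this direction 2.5% of all genes did not overlap and 1.34% were past that threshold. Batf3, a transcription factor of these cells, had 6.49, 6.66 and 2.29 against 8.69, 9.47 and 9.71. Siglech, of plasmacytoid dendritic cells, had 11.1, 6.66 and 14.9 against 8.69, 3.79 and 4.05 and overlapped. Tlr9, the receptor for unmethylated DNA, had 2.78, 6.66 and 4.59 against 4.35, 9.47 and 17.8 and overlapped. The median standard error of a log2 fold change over all genes was 0.375.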

How the data were processed

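RNA of lymph node, kidney and TLS (tertiary lymphoid structure) tissue was poly(A)-selected, fragmented with RNase III and sequenced on an Ion Torrent PGM, with reads mapped to GRCm38 by the authors in CLC Genomics Workbench. The deposited signal values are gene counts that the authors normalized with DESeq size factors after adding 1. Whole reads were recovered from 100% of the values (tolerance 0.001) by multiplying by the size factor, and 0 columns lacked a sample. A few genes are not reported here. The labels also list BWA, HTSeq, edgeR and limma without their role. The 15 whole-kidney samples of the series were not analysed here.

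The 6810 genes whose values averaged 5 or more over the 6 libraries were tested. Another 7172 fell below the filter, of which 2034 had no read in these libraries. The main test was limma 3.58.1 (trend, robust) on log2(value + 1) in R 4.3.3, with Benjamini-Hochberg adjustment and a threshold of 0.05. Log2 fold changes are proteinuric over antibody-positive on this scale and understate changes of low genes. Alternatives on recovered reads used edgeR 4.0.16 (quasi-likelihood and likelihood ratio tests) and DESeq2 1.42.0. Further alternatives changed the pseudocount, filter, scaling, covariates or libraries. Scripts were tested on simulated data. Shares carry 95% Wilson intervals, ratios of few reads exact counting intervals, and the floor was 3 reads. Similar transcripts were found with BLASTN 2.17.0 against GENCODE vM21.

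The comparison, gene lists and motifs were chosen with earlier results of these data known. The rule for named genes took DE genes without overlap between groups and up to 4 per list, with the genes the study names for lymphoid structure formation or nephritis. As no gene was DE in the main test, genes called in an alternative, or on a list with an unadjusted p under 0.05, were named after their values were seen.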

Additional observations from a re-analysis of the deposited data

How the results depend on the processing

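The count of 0 DE genes held in 23 of 27 alternatives. Among these, an added cut of an absolute log2 fold change of at least 1 could only give 0. Adding C45 as a group of its own left the fold changes and the residual spread of each gene as in the main fit, so it was close to a repeat. Age as a covariate could not separate age from group, because the age ranges do not overlap. The edgeR likelihood ratio test gave 37 (26 higher and 11 lower in proteinuric nodes), DESeq2 13 (9 and 4) and limma over all 14 libraries 7 (5 and 2). Leaving out 1 library at a time gave between 0 and 5 DE genes, between 0 and 5 of them higher in proteinuric nodes, and the 5 came from leaving out D11. On the gene lists, the likelihood ratio test called 11 members higher and 3 lower, DESeq2 6 and 2, and the fit of all libraries 3 and 1, while leaving out a library gave between 0 and 2 higher. The cause of these differences was not tested. Of the named genes, 76 were followed across the settings. With age as a covariate, 6 of these changed direction, to -0.048 for Ccl12, -0.17 for Snord55, 0.16 for mt-Atp6, 0.0056 for mt-Atp8, 0.12 for mt-Nd4 and 0.23 for mt-Nd4l. Direction was kept in the other 1915 of 1921 alternative values, and 62 values passed the threshold. As 38 of the 76 genes were called in an alternative fit of the same data, kept directions are not independent evidence. Genes at an unadjusted p under 0.05 numbered between 35 and 264 higher and between 42 and 307 lower in proteinuric nodes. TMM moved the median log2 fold change of all genes by 0.10, from -0.08 to 0.02, and age as a covariate moved it to -0.18. The mitochondrial covariate and the fit without L25 and H6 were added after seeing the data and gave 0 DE genes. The value of 3 reads, at most 5.80 in these libraries, limits what low genes can show. No paired analysis was possible because the groups hold different mice and the replicate numbers follow accession order.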
